A study of Mus musculus with 30 samples.

Results

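Amino acid transporter genes were followed across the ileum and colon of mice that differed in their microbes, age and chemical injury. The genes were chosen by name: every symbol of the solute carrier families Slc1a, Slc3a, Slc6a, Slc7a, Slc15a, Slc36a, Slc38a and Slc43a that ends in a digit, which gave 66 of the 24746 symbols in the files. Of these, 47 reached a level of at least 1 CPM (counts scaled to the reads assigned to genes in the library) in 3 or more libraries and are the members described here. The minimum used measured values, and a gene high in a single group could pass it through that group alone. Just inside it were Slc6a2, at 1 CPM or more in 4 libraries, and Slc6a11, in 6. Just outside were Slc6a12, Slc6a13, Slc6a15 and Slc15a2, each in 2 libraries. Of the 19 symbols left out, Slc6a5, Slc6a16 and Slc7a12 had no read. The families kept 11 of 19 Slc6a, 11 of 15 Slc7a, 9 of 11 Slc38a, 5 of 7 Slc1a, 3 of 5 Slc15a, 3 of 4 Slc36a, 3 of 3 Slc43a and 2 of 2 Slc3a genes. Slc6a20a and Slc6a20b, which carry proline, end in a letter and are not members.

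The RNA came from pieces of whole intestine of the C3H/HeOuJ strain and was read as 3′ messenger RNA tags in 30 libraries, 3 for each of 10 groups. Terminal ileum came from mice of 6 and of 10 weeks that were germ-free (GF), that carried a specific-pathogen-free microbiota (SPF), or that were born germ-free and received SPF microbiota at 5 weeks of age (COL). Distal colon came from SPF and COL mice of 10 weeks, either untreated or kept on 1.5% dextran sulfate sodium (DSS), which damages the lining of the colon, for 4 days followed by 2 days of water. No germ-free colon was among the samples analysed here, and nothing in the labels says that replicates are different animals. The p-values therefore reflect the spread among libraries, which may be technical.

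Dietary protein is taken up by the small intestinal epithelium both as free amino acids and as short peptides. At the brush border, sodium-coupled carriers take up neutral amino acids, the proton-coupled carrier PEPT1 takes up di- and tripeptides, and a heterodimer of a Slc3a heavy chain and a Slc7a light chain exchanges cystine and cationic amino acids for neutral ones. At the basolateral side, other Slc3a and Slc7a dimers and uniporters let amino acids out to the blood. Several members carry other solutes, among them Slc6a4 for serotonin, Slc6a2 for norepinephrine, Slc6a6 for taurine and Slc6a8 for creatine.

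Reads assigned to genes numbered 3830539 to 6791455 in a colon library and 2233837 to 9088573 in an ileum library, so that 3 reads, the limit that a count of 0 allows, are 0.442 to 0.783 CPM in colon and 0.330 to 1.34 CPM in ileum. These limits cover counting error only. The tissue labels were checked against markers: of 10 colonocyte genes 7 were higher in colon and 2 lower in SPF mice, and 6 of 6 ileal enterocyte genes were lower. Some libraries stood apart. The third SPF ileum library of 10 weeks held 227 CPM of smooth muscle markers against 1760 and 2260 in the other 2 of its group, and 599 CPM of T and NK cell markers against 275 and 268. The second COL colon library with DSS held 773 CPM of pancreas markers against 3.68 and 0.412. The third SPF colon library with DSS held 1500 CPM of goblet cell markers against 8650 and 6660. Some of the results below are therefore given without these libraries. In RNA from whole tissue, fewer cells of a type and less RNA per cell cannot be told apart.

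Several uptake genes, among them Slc6a19, Slc3a1 and Slc7a9, were far lower in distal colon than in terminal ileum of the same microbial status at 10 weeks. In SPF mice 24 of the 41 members tested passed an adjusted p under 0.05, 20 lower and 4 higher in colon, where 32.5% of all genes tested passed (17.2% lower and 15.3% higher). In COL mice 22 of 41 passed, 18 lower and 4 higher, against 26.2% of all genes (14.3% lower and 11.9% higher). The median log2 fold change over the members tested was -0.87 in SPF and -1.01 in COL mice, and -0.01 over all genes in both. Slc1a5, Slc36a1 and Slc6a14 were called higher in colon in both mice. The other members called in both, such as Slc6a19, Slc3a1 and Slc7a9, were lower in colon in both. A member that reached the CPM minimum only through its high tissue had to differ, so these counts describe the members and do not test them.

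**Figure D1:**
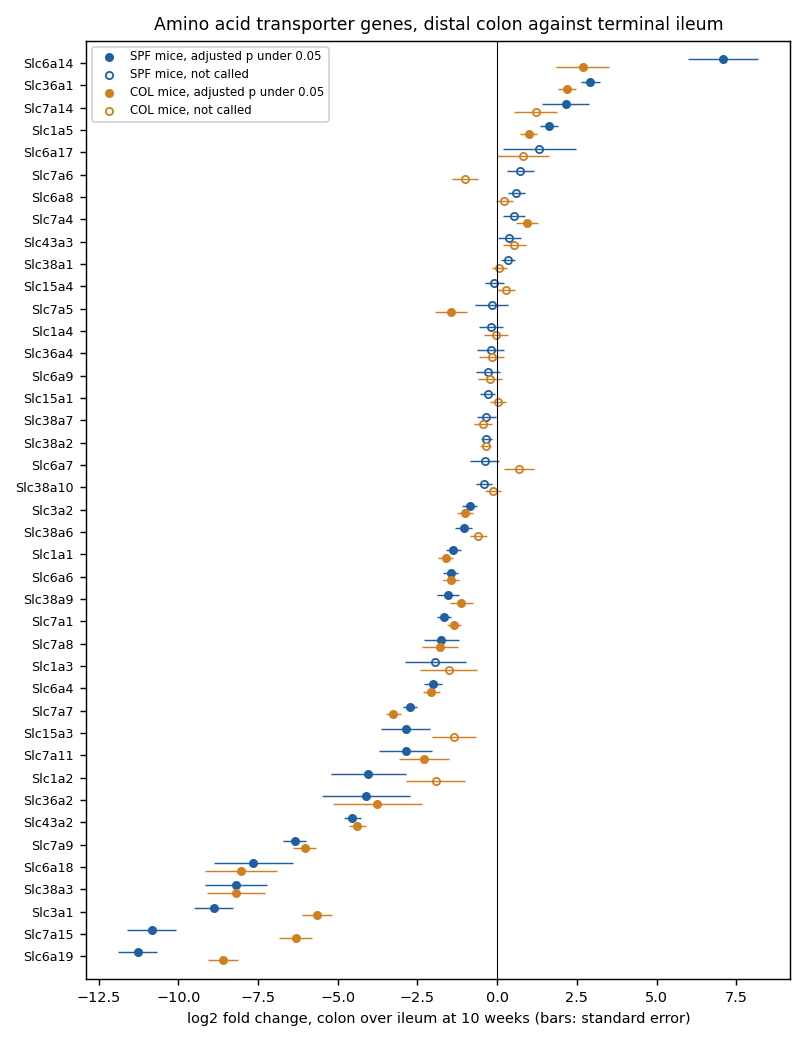
Log2 fold change of colon over ileum at 10 weeks for the 41 members tested (x axis), with bars of 1 standard error, in SPF mice (blue) and COL mice (orange). Filled points passed an adjusted p under 0.05. For Slc6a19, Slc7a15, Slc6a18 and Slc38a3 a group had no read or nearly none, and the fitted value depends on a prior count, so the text gives ratios for them instead. Points lie mostly left of 0, with Slc6a14, Slc36a1 and Slc1a5 on the right in both mice.

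Slc6a19 encodes B0AT1, the main sodium-coupled carrier of neutral amino acids at the brush border. It was at 61.3, 54.0 and 51.5 CPM in the 3 SPF ileum libraries and had no read in any SPF colon library. The ileum was at least 256-fold higher, counting 3 reads over the colon group as the limit. In COL mice it was at 48.2, 48.1 and 63.1 CPM in ileum, and 2 reads in 1 colon library gave a ratio of 443 (95% exact binomial interval 122 to 3.66e+03). Its neighbour Slc6a18, a related neutral amino acid carrier, had no read in untreated colon of either mice and was at least 23.8-fold higher in SPF and at least 33.3-fold higher in COL ileum. Slc38a3, a glutamine carrier, also had no read there, and the ileum was at least 31.2-fold and at least 37-fold higher. Slc7a15, a light chain relative in mice, was at 33.2, 48.7 and 39.8 CPM in SPF ileum with no read in SPF colon, at least 178-fold higher, and in COL mice the colon libraries held 0.665, 0 and 0.386 CPM (log2 fold change -6.32 ± 0.51 standard error, adjusted p = 3.4e-11, and -7.16 without the first of these). Slc1a1, the glutamate and aspartate carrier EAAT3, was lower by less: it read 89.2, 110 and 101 CPM in SPF ileum and 58.7, 34.1 and 33.1 in SPF colon (-1.38 ± 0.24, adjusted p = 4.4e-05). The direction was the same in COL mice (-1.61 ± 0.24, adjusted p = 3.9e-06), and no group overlapped another in any of these comparisons. Slc6a19os, which lies opposite Slc6a19, reached at most 2.04 CPM in any library, and whether the counting used strand is not given.

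The cystine exchanger of the brush border is a dimer of the heavy chain rBAT (Slc3a1) and the light chain b0,+AT (Slc7a9), and the genes of both chains were low in colon. Slc3a1 was at 248, 225 and 337 CPM in SPF ileum against 0.783, 1.12 and 0 in SPF colon, and at 187, 235 and 208 in COL ileum against 5.15, 4.22 and 3.86 in COL colon. Its log2 fold changes were -8.89 ± 0.61 (adjusted p = 8e-12) and -5.64 ± 0.47 (adjusted p = 4.4e-10). Without the third SPF colon library, which had no read, the SPF value was -8.21, and without the second it was -9.67. The COL colon libraries were all above the SPF colon libraries, but the test between them did not pass (2.79 ± 0.87, adjusted p = 0.54), nor did the test of the tissue difference between mice (3.25 ± 0.83, adjusted p = 0.52). Slc7a9 was at 408, 360 and 436 CPM in SPF ileum and 3.39, 4.46 and 7.78 in SPF colon (-6.36 ± 0.37, adjusted p = 1e-14), with a like difference in COL mice (-6.03 ± 0.36, adjusted p = 1.8e-14). The stretches of 250 bases before the annotated starts of these partner genes (RefSeq, GRCm38.p6) are shown because both genes also moved with DSS. Neither holds a match to the sites searched: the CDX2 site TTTATTAC (in 0.898% of 32851 windows of this length), the amino acid response core TGATGCAA (0.791%), the STAT site TTCNNNGAA (7.02%), the antioxidant response core TGACNNNGC (10.2%) or the E-box CACGTG (6.02%), read on both strands. An HNF1 site, found in 0.371% of windows, was also searched and matched neither stretch. Both stretches are printed 5′ to 3′ on the strand of the gene, with no capitals because no site matched. The GENCODE vM21 start of Slc7a9, chr7:35448796, lies upstream of its whole stretch. By that annotation the Slc7a9 stretch is inside the gene, and its result does not cover the bases before the GENCODE start.
Slc3a1, chr17:85028097-85028346, plus strand: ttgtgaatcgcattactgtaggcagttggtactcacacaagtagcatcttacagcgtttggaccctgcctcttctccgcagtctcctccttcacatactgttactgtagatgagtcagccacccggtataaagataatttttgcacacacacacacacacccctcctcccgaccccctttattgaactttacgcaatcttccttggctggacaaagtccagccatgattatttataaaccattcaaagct
Slc7a9, chr7:35448842-35449091, plus strand: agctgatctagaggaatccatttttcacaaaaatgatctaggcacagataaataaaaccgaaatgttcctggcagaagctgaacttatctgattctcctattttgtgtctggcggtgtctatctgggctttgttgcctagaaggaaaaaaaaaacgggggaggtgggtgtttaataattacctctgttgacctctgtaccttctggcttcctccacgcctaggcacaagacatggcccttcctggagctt

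Genes of the exit side were lower in colon as well, by unequal amounts. Slc43a2, the uniporter LAT4 for branched-chain and aromatic amino acids, was at 317, 402 and 398 CPM in SPF ileum and at 21.7, 16.5 and 14.4 in SPF colon. Its log2 fold change was -4.54 ± 0.27 in SPF mice (adjusted p = 8.8e-15) and -4.39 ± 0.27 in COL mice (adjusted p = 1.5e-14), with no overlap in either. Slc7a7, the light chain y+LAT1 that exports cationic amino acids, was at 108, 110 and 90 CPM in SPF ileum and at 17.2, 17 and 15.8 in SPF colon (-2.74 ± 0.23, adjusted p = 1.9e-11). In COL mice the fall of Slc7a7 was -3.26 ± 0.23 (adjusted p = 6.2e-13). Slc3a2, the heavy chain 4F2hc that Slc7a7 and Slc7a8 need, differed less: -0.87 ± 0.25 in SPF (adjusted p = 0.0071) and -1.01 ± 0.25 in COL mice (adjusted p = 0.0024). Its SPF call ended without the third SPF colon library (-0.52, adjusted p = 0.07). Slc7a8, the light chain LAT2, was lower by -1.75 ± 0.54 (adjusted p = 0.013) and -1.79 ± 0.55 (adjusted p = 0.015). The SPF call of Slc7a8 ended without the second colon (adjusted p = 0.055) or the first ileum library (adjusted p = 0.058), and its COL call without the second colon (adjusted p = 0.07) or the first ileum library (adjusted p = 0.11).

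The peptide carrier did not follow this pattern. Slc15a1, which encodes PEPT1, was at 264, 260 and 167 CPM in SPF ileum and at 166, 191 and 245 in SPF colon, so the groups overlapped. The difference was -0.30 ± 0.24 in SPF mice (adjusted p = 0.36) and 0.03 ± 0.24 in COL mice (adjusted p = 0.94). Of 13 brush-border peptidases and transporter partners tested, a list that holds enzymes that cut peptides at the same membrane, chaperones of its carriers and a few other carriers such as Slc6a20a, 11 were lower in colon in both mice and none was higher, with a median of -4.97 in SPF and -5.32 in COL mice. Among them were the aminopeptidases Enpep (-7.83 ± 0.30 in SPF) and Anpep (-8.79 ± 0.41).

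The members higher in colon were few. Slc36a1, the proton-coupled carrier PAT1 for small neutral amino acids, was at 24.4, 22.7 and 17.5 CPM in SPF ileum and at 115, 121 and 297 in SPF colon (2.92 ± 0.30, adjusted p = 1.9e-09). It was higher in COL colon too (2.20 ± 0.28, adjusted p = 2.8e-07). Slc36a1os, which lies opposite it, reached at most 0.22 CPM in any library. Slc1a5, the glutamine exchanger ASCT2, was at 31.9, 32.1 and 20.1 CPM in SPF ileum and at 78.1, 143 and 59.2 in SPF colon (1.62 ± 0.28, adjusted p = 2.4e-05), with 0.99 ± 0.27 in COL mice (adjusted p = 0.0056). Slc7a14, an intracellular Slc7a member, was called in SPF mice only (2.14 ± 0.73, adjusted p = 0.024) and Slc7a4 in COL mice only (0.95 ± 0.34, adjusted p = 0.039). Leaving out any of 4 of the 6 SPF libraries ended the first of these calls (adjusted p up to 0.078), and leaving out any of 5 of the 6 COL libraries ended the second (adjusted p up to 0.23).

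Among other members, the serotonin carrier Slc6a4 (-2.01 ± 0.27 in SPF, -2.06 ± 0.27 in COL) and the taurine carrier Slc6a6 (-1.46 ± 0.24 and -1.45 ± 0.24) were lower in colon in both mice. So were the cationic amino acid carrier Slc7a1 (-1.67 ± 0.23 and -1.35 ± 0.22) and the lysosomal sensor Slc38a9 (-1.54 ± 0.36 and -1.12 ± 0.35). Slc38a6 (-1.05 ± 0.26, adjusted p = 0.002) was called in SPF mice. Slc7a11, the light chain of the cystine and glutamate exchanger, was also called lower in both (-2.87 ± 0.83 and -2.30 ± 0.78), but a single ileum library in each carried much of it: its ileum values were 44.7, 2.64 and 6.27 CPM in SPF and 8.55, 38.5 and 11.6 in COL mice. Without the first SPF ileum library the value of Slc7a11 was -0.91 (adjusted p = 0.44), and without the second COL ileum library -1.38 (adjusted p = 0.25). The SPF call also ended without the first colon library (adjusted p = 0.052) and the COL call without the second or the third colon library (adjusted p = 0.11 each). That first SPF ileum library was also the highest for Slc15a3, a lysosomal carrier of histidine and peptides (15.2 against 2.23 and 2.69 CPM), and for Slc36a2, a proline and glycine carrier (10 against 1.83 and 0). Without it Slc15a3 moved from -2.86 to -1.51 (adjusted p = 0.19), Slc36a2 from -4.11 to -2.32 (adjusted p = 0.29) and the glutamate carrier Slc1a2 from -4.04 to -3.38 (adjusted p = 0.055). Without the second SPF colon library the values were -3.94 for Slc15a3, -7.40 for Slc1a2 and -4.95 for Slc36a2, and Slc1a2 was -3.42 without the third. Slc36a2 also lost its SPF call without the first or the third colon library (adjusted p = 0.067 and 0.086), and its COL call (-3.76, adjusted p = 0.046) without any of 5 of the 6 libraries (adjusted p up to 0.14). The COL call of Slc38a9 ended without the second colon library (adjusted p = 0.084). Slc7a5, called in COL mice alone (-1.45 ± 0.51, adjusted p = 0.034), lost its call without any of 5 of the 6 libraries (adjusted p up to 0.1). Markers of other cells differed between these tissues: 7 of 7 T and NK cell markers tested were lower in colon in both mice, and 8 of 9 smooth muscle markers were higher in SPF and 3 of 9 in COL colon. Absorptive enterocyte markers were lower in 12 of 12 in SPF and 11 of 12 in COL mice, plasma cell markers in 6 of 6 in both, and proliferation markers in 9 and 8 of 10. Their part in the member differences was not tested.

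Slc6a14, the sodium- and chloride-coupled carrier ATB0,+ that takes up neutral and cationic amino acids, ran opposite to Slc6a19, Slc3a1 and Slc7a9. In colon it was at 466, 536 and 230 CPM in untreated SPF mice and at 316, 341 and 311 in untreated COL mice. In ileum it was at 3.84, 0 and 5.82 CPM in SPF mice of 10 weeks and at 15.6, 40.1 and 87 in COL mice of that age. Every colon library was above every ileum library of the study for Slc6a14, with 139 CPM in the lowest colon and 87 in the highest ileum library. Colon was higher by 7.08 ± 1.11 in SPF mice (adjusted p = 3.9e-05) and by 2.68 ± 0.83 in COL mice (adjusted p = 0.021). The COL call ended without the first (adjusted p = 0.084) or the second COL ileum library (adjusted p = 0.081), and the SPF value moved to 6.39 without the second SPF ileum library and the COL value to 3.48 without the third COL ileum library. The difference between mice did not pass (-4.41 ± 1.32, adjusted p = 0.65).

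**Figure D2:**
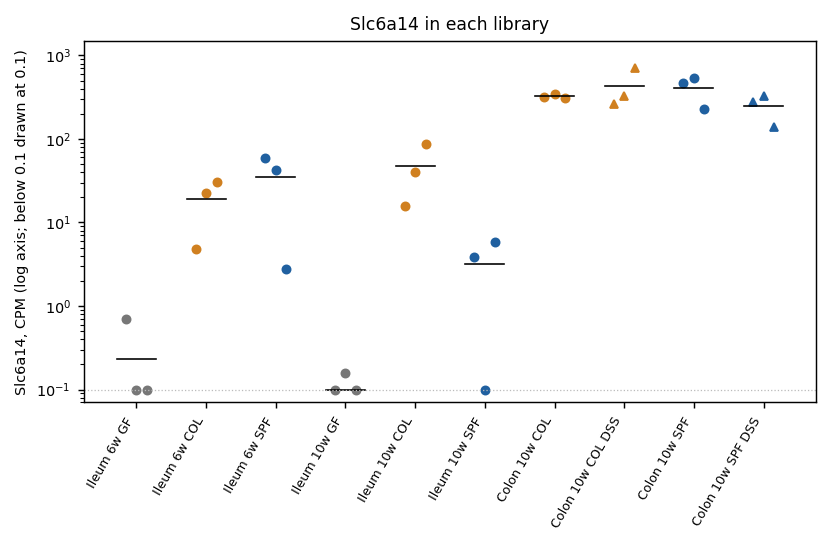
Slc6a14 in CPM (y axis, log scale, values under 0.1 drawn at 0.1) in each of the 30 libraries, grouped by tissue, age, microbial status and treatment. Points are libraries, triangles are DSS, and lines are group means of CPM. The GF ileum libraries lie at or below 0.696 and the colon libraries at or above 139.

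In the germ-free ileum Slc6a14 was nearly absent: the libraries read 0.696, 0 and 0 CPM at 6 weeks, 3 reads in all, and 0, 0.156 and 0 at 10 weeks, a single read. With microbes it was at 58.6, 42.9 and 2.75 CPM in SPF mice of 6 weeks, and at 4.84, 22.9 and 30.3 in COL mice of 6 weeks, 1 week after they received microbes. All 6 of these libraries were above all 3 GF libraries of that age. From the pooled reads SPF was 216 times GF (95% exact binomial interval 73.6 to 1.05e+03) and COL 124 times GF (42.2 to 605) at 6 weeks. At 10 weeks COL was 773 times GF (138 to 3.06e+04) and SPF 45.2 times GF (7.65 to 1.83e+03), where 1 SPF library had no read and overlapped the GF libraries. Intervals cover counting error only, and the spread between libraries was far wider, with the SPF libraries of 6 weeks running from 2.75 to 58.6. edgeR called the SPF difference at 6 weeks (adjusted p = 0.016) and the COL difference at both ages (adjusted p = 0.046 and 0.011), but not SPF at 10 weeks (adjusted p = 0.35, and 0.041 with DESeq2). Leaving out single libraries ended these calls: SPF at 6 weeks was lost without any of the 3 GF libraries or the first SPF library (adjusted p 0.054 to 0.084), COL at 6 weeks without any GF library or the second or the third COL library (adjusted p 0.1 to 0.18), and COL at 10 weeks without the second or the third GF library (adjusted p 0.07 and 0.056). The fitted log2 values depend on the few GF reads, and moved from 7.74 to 10.85 (SPF) and from 6.92 to 10.05 (COL) without the first GF library of 6 weeks, and from 9.15 to 11.04 without the second of 10 weeks and to 8.36 without the third COL library. Both statuses were set against the same GF libraries. COL against SPF was not called at either age (at 10 weeks 4.02 ± 1.25, adjusted p = 0.39), nor was 10 against 6 weeks in SPF mice (-3.80 ± 1.24, adjusted p = 0.13), although COL was above SPF in every library at 10 weeks.

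The gene lies at chrX:21714896-21742355 on the plus strand (GENCODE vM21, mm10). The 250 bases before its RefSeq start (GRCm38.p6) are shown because this gene was called between tissues and in some comparisons with GF ileum. Its calls against GF ended without some single libraries, and COL against SPF ileum was not called. These bases hold none of the sites searched above, the STAT site included, and are printed without capitals, 5′ to 3′ on the strand of the gene.
Slc6a14, chrX:21714650-21714899, plus strand: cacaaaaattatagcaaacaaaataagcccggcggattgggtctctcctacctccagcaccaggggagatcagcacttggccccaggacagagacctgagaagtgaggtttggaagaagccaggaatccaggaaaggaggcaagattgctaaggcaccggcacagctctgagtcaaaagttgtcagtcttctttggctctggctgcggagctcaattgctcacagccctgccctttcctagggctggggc

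Slc43a2, Slc7a1 and Slc7a5 were each called higher with microbes in at least 2 of the 4 comparisons with GF ileum, and members called lower included Slc15a1 and Slc6a7. At 6 weeks 7 of 40 members tested passed between SPF and GF mice, 6 higher and 1 lower in SPF, against 7.69% of all genes (4.37% higher and 3.33% lower). Between COL and GF mice 4 passed, all higher in COL, against 4.64% of all genes (2.78% higher and 1.86% lower). At 10 weeks 2 passed between SPF and GF, 1 in each direction, against 6.2% of all genes (4.22% higher and 1.98% lower), and 9 between COL and GF, 4 higher and 5 lower, against 9.14% (5.1% higher and 4.04% lower). The same GF libraries were the control of SPF and COL at each age. Leaving out single libraries moved these counts: to 4 for SPF at 6 weeks without the second GF or first SPF library, and to between 1 and 8 for COL at 6 weeks, which moved with each of its 6 libraries. For SPF at 10 weeks the count was 0 without the second GF library or the third SPF library, which stood apart in muscle and T cell markers, 1 without the third GF library and 5 without the second SPF library. For COL at 10 weeks it was 3 without the second and 4 without the third GF library. Medians over the members were 0.06, -0.02, 0.05 and -0.06 in that order, beside -0.02, -0.02, 0.02 and 0.01 over all genes. Among called members the groups overlapped for Slc15a4 and Slc38a3. The others were picked by a test on the same libraries, so their separation adds no support. COL against SPF gave no called member at either age with edgeR: 0 of 40 at 6 weeks, with none at an unadjusted p under 0.05 and none with DESeq2, and 0 of 40 at 10 weeks, with 7 at an unadjusted p under 0.05 and 1 with DESeq2 or without the first SPF library. All genes called there were 0.0982% and 0.0907%, and 1048 and 1055 of 13233 genes were at an unadjusted p under 0.05.

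Carriers of large neutral amino acids differed in direction, with Slc43a2 and Slc7a5 called higher and Slc7a8 and Slc3a2 called lower in at least 1 comparison with GF. Slc43a2 was at 262, 274 and 227 CPM in GF mice of 6 weeks, at 367, 404 and 370 in SPF mice and at 429, 356 and 410 in COL mice. It rose by 0.79 ± 0.17 in SPF (adjusted p = 0.0039) and 0.89 ± 0.17 in COL mice (adjusted p = 0.002). At 10 weeks Slc43a2 was at 233, 272 and 290 CPM in GF, 317, 402 and 398 in SPF and 446, 328 and 378 in COL mice, with 0.54 ± 0.17 in both, called in COL (adjusted p = 0.047) and short of the threshold in SPF (adjusted p = 0.058, and 0.022 with DESeq2). Leaving out any GF library or the first or the third COL library ended that COL call (adjusted p up to 0.22). Slc7a5, the light chain LAT1, was at 2.09, 1.29 and 2.45 CPM in GF and 10.5, 8.36 and 10.3 in SPF mice of 6 weeks (2.5 ± 0.55, adjusted p = 0.0049). In COL mice of 10 weeks Slc7a5 was at 10, 13.9 and 11.2 against 4.35, 1.4 and 2.33 in GF mice (2.14 ± 0.54, adjusted p = 0.011), a call lost without the second (adjusted p = 0.082) or the third GF library (adjusted p = 0.06). It was not called by edgeR for COL at 6 weeks (1.70, adjusted p = 0.085, and 0.048 with DESeq2) or SPF at 10 weeks (1.43, adjusted p = 0.14), where the SPF libraries ran from 1.83 to 12.4 CPM. Slc3a2, the heavy chain of LAT1, did not rise with it: at 10 weeks it was at 214, 236 and 226 CPM in COL against 342, 405 and 330 in GF mice, a fall of -0.67 ± 0.16 (adjusted p = 0.0075), and in the other 3 comparisons with GF edgeR did not call it, while DESeq2 called it lower in SPF mice of 6 weeks (-0.44, adjusted p = 0.045).

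The cationic amino acid carrier Slc7a1 (CAT1) was at 59.9, 69 and 64.4 CPM in GF and 88.9, 96.1 and 99.3 in SPF mice of 6 weeks, a rise of 0.76 ± 0.18 (adjusted p = 0.0092). At 10 weeks Slc7a1 was at 68.8, 56.6 and 63.7 in GF, 91.1, 98.4 and 121 in SPF and 82.6, 120 and 93.1 in COL mice. The rise was 0.77 ± 0.19 in SPF (adjusted p = 0.011) and 0.64 ± 0.18 in COL mice (adjusted p = 0.025), and in COL mice of 6 weeks the value was 0.61 (adjusted p = 0.054, and 0.027 with DESeq2). Leaving out the first GF library ended the SPF call at 6 weeks (adjusted p = 0.054), the second GF or the third SPF library that of SPF at 10 weeks (adjusted p = 0.085 and 0.068), and any GF library or the second COL library that of COL at 10 weeks (adjusted p up to 0.2). Slc36a1 was at 16.2, 16.1 and 16.5 CPM in GF and at 33.1, 28.4 and 24.3 in SPF mice of 6 weeks (1.02 ± 0.21, adjusted p = 0.0028), and missed the threshold in the other comparisons with GF (0.72, 0.41 and 0.63, adjusted p = 0.055, 0.32 and 0.069), the first of which, COL at 6 weeks, DESeq2 called (adjusted p = 0.032). Slc7a7 rose in SPF mice of 6 weeks alone among these comparisons (0.60 ± 0.16, adjusted p = 0.022), and without the first or second GF or the first or second SPF library it was not called (adjusted p 0.084 to 0.18). In COL mice of 6 weeks Slc38a3 (1.36 ± 0.38, adjusted p = 0.038) and Slc15a4, a lysosomal histidine and peptide carrier (0.81 ± 0.24, adjusted p = 0.048), were called higher, although their groups overlapped. Both calls ended without any of 5 of the 6 libraries (adjusted p up to 0.26 for Slc38a3 and 0.24 for Slc15a4).

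**Figure D3:**
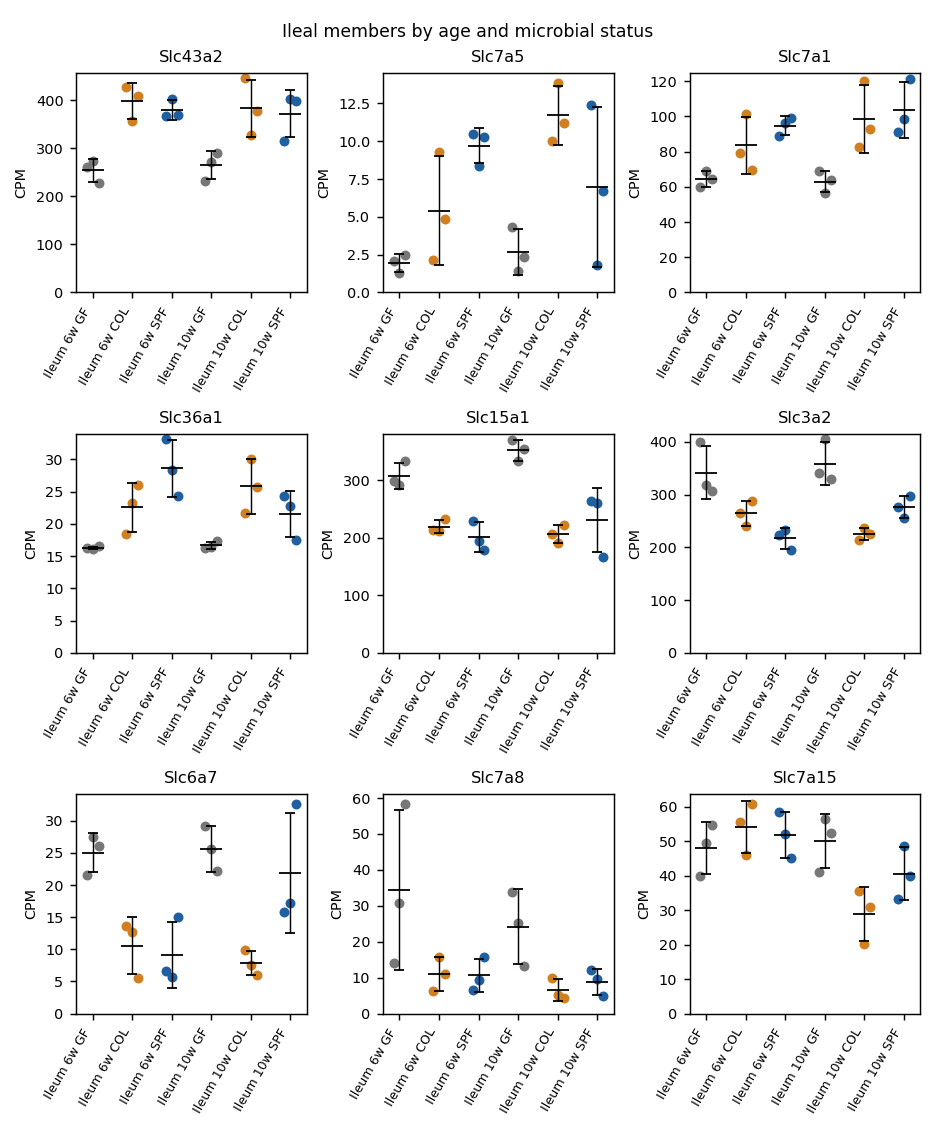
CPM (y axes, from 0) of 9 members in each ileum library, by age and microbial status. Points are libraries, horizontal lines are means and bars are SD (n = 3). Slc43a2 and Slc7a1 lie lower in the GF groups (grey) and Slc15a1 lies higher there, while Slc6a7 at 10 weeks overlaps between GF and SPF mice.

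The peptide carrier and the proline carrier were lower with microbes. Slc15a1 was at 370, 333 and 354 CPM in GF mice of 10 weeks, at 264, 260 and 167 in SPF and at 207, 190 and 222 in COL mice. It fell by -0.77 ± 0.17 in COL (adjusted p = 0.0031) and by -0.58 ± 0.17 in SPF mice (adjusted p = 0.034). With the replicate number as a block, used because same-numbered libraries deviated together in this SPF and GF comparison, the SPF value of Slc15a1 was -0.58 with an adjusted p of 0.051, and 1 member in place of 2 was called, Slc7a1. The SPF call was also lost without any GF library or the third SPF library (-0.45, adjusted p = 0.14). At 6 weeks Slc15a1 was at 299, 291 and 334 CPM in GF, 230, 195 and 179 in SPF and 214, 212 and 232 in COL mice, without overlap, but neither test passed (-0.41, adjusted p = 0.15, and -0.25, adjusted p = 0.47). Slc6a7, which encodes a proline carrier known from brain, was at 21.6, 27.5 and 26 CPM in GF mice of 6 weeks and at 6.54, 5.72 and 15.1 in SPF mice (-1.30 ± 0.35, adjusted p = 0.021). That call of Slc6a7 ended without the second or the third GF or the first or second SPF library (adjusted p 0.063 to 0.14). At 10 weeks it was at 9.83, 7.56 and 6.06 CPM in COL against 29.2, 25.6 and 22.1 in GF mice (-1.71 ± 0.36, adjusted p = 0.003), while SPF mice were at 15.8, 17.2 and 32.7 and overlapped GF (-0.20, adjusted p = 0.82). Slc7a8 was at 10, 5.22 and 4.28 CPM in COL and 34, 25.2 and 13.2 in GF mice of 10 weeks (-1.88 ± 0.54, adjusted p = 0.037), and the other 3 comparisons of Slc7a8 with GF gave -1.55, -1.42 and -1.36 (adjusted p = 0.075, 0.14 and 0.16), the first 2 of them, SPF and COL at 6 weeks, called by DESeq2 (adjusted p = 0.014 and 0.043). Its COL call was lost without the second or the third COL or the first or second GF library (adjusted p up to 0.15).

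Cell markers moved with these comparisons. The summed level of 12 absorptive enterocyte markers, none of them at 0 in the ileum, ran from 13100 to 19330 CPM in GF mice of 6 weeks and from 14900 to 17750 at 10 weeks. It ran from 7757 to 8004 in SPF and 8843 to 11610 in COL mice of 6 weeks, and from 9109 to 11880 and 7343 to 10630 at 10 weeks. Few of the 12 genes were called: 3 lower in SPF and none in COL mice of 6 weeks, and at 10 weeks 1 lower and 1 higher in SPF and 3 lower in COL mice, with medians of -0.47, -0.16, -0.26 and -0.43. The 7 T and NK cell markers in the files went from 1.87 to 5.63 CPM in GF mice of 10 weeks to 268 to 599 in SPF and 107 to 115 in COL mice, and 7 of 7 were called higher in each. At 6 weeks they were at 2.41 to 24.4 CPM in GF, 115 to 265 in SPF and 12.3 to 15.4 in COL mice, with 4 of 7 called higher in SPF and none in COL mice. Paneth cell markers were called higher in 4 of 6 in SPF mice at both ages, and in 5 of 6 at 6 and 1 of 6 at 10 weeks in COL mice, and plasma cell markers in 6 of 6 and 5 of 6 in SPF and 1 of 6 and 5 of 6 in COL mice. The sum of 8 goblet cell markers ran from 21490 to 23600 CPM in GF, 14280 to 21290 in SPF and 12360 to 15860 in COL mice of 10 weeks, and 0 and 2 of the 8 were called lower. The 10 macrophage markers ran from 120 to 138 CPM in GF, 242 to 263 in SPF and 284 to 333 in COL mice of 10 weeks. Their part in the changes of Slc15a1, Slc7a5 and the other members was not tested. Of 22 genes of the amino acid starvation response tested (genes induced through the factor ATF4 when amino acids run short) 6 were higher and 2 lower in SPF against GF mice at 6 weeks, with Mthfd2 (1.54 ± 0.29) and Asns (1.38 ± 0.27) among the higher and Trib3 (-1.20 ± 0.27) and Cth (-0.81 ± 0.21) the lower. In COL mice of 6 weeks 3 were higher and 1 lower, and at 10 weeks 2 higher and 1 lower in SPF and 3 and 3 in COL mice. Of 15 genes of amino acid breakdown and arginine use tested, 3 were higher in each of the 4 comparisons with GF. In SPF and COL mice, 4 and 0 were lower at 6 weeks, and 2 and 3 at 10 weeks. Nos2, the inducible nitric oxide synthase, which uses arginine, was higher in all 4 comparisons (5.55 to 6.54 on the log2 scale). Arg2, a mitochondrial arginase, was lower in SPF mice of 6 weeks (-1.53 ± 0.20) and COL mice of 10 weeks (-1.29 ± 0.20). A relation of these genes to Slc7a1 was not tested.

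Between 6 and 10 weeks few members were called, though more were at an unadjusted p under 0.05 with edgeR. In SPF and COL mice these were 14 of 40 each, beside 2475 and 2324 of 13233 genes. In GF mice they were 2 of 40, beside 503 genes. The median absolute log2 fold change in SPF mice was 0.37 over members and 0.301 over all genes. In COL mice it was 0.504 and 0.279. In GF mice 0 of 40 were called by edgeR, with 2 at an unadjusted p under 0.05 and 0 with DESeq2, where 0.0302% of all genes were called. In SPF mice 0 of 40 were called, with 14 at an unadjusted p under 0.05 and 2 with DESeq2 or without the third library of 6 weeks and 1 without the second of 10 weeks, against 1.37% of all genes. In COL mice 1 of 40 was called, and 2 without the first library of 6 weeks, against 2.53% of all genes (1.62% higher and 0.914% lower). That member was Slc7a15, at 55.6, 45.9 and 60.6 CPM at 6 weeks and 35.5, 20.2 and 30.8 at 10 weeks in COL mice (-1.12 ± 0.23, adjusted p = 0.01), without overlap. The Slc7a15 call ended without the second library of 10 weeks (-0.93, adjusted p = 0.07) or the third of 6 weeks (adjusted p = 0.074). It was also lower in COL than in GF mice at 10 weeks (-0.79 ± 0.23, adjusted p = 0.028), which did not pass without the second or the third COL or second or the third GF library (adjusted p up to 0.18). Its age difference was 0.07 in GF (adjusted p = 1) and -0.50 in SPF mice (adjusted p = 0.24). A test of whether the difference of COL from GF mice changed between the ages, added after the data were seen, gave -1.20 ± 0.32 (adjusted p = 0.14) for Slc7a15 and called no member, with 10 at an unadjusted p under 0.05 and none with DESeq2. The same test for SPF called none, with 5 at an unadjusted p under 0.05 and none with DESeq2. Of all genes 0.144% and 0.0151% were called in these tests, and 1373 and 1132 of 13233 were at an unadjusted p under 0.05.

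In the colon, the peptide carrier gene Slc15a1 was lower and Slc7a5 and Slc7a9 were higher with DSS in both mice. Slc7a6, Slc7a7 and Slc7a8 of the same family were also tested there and were called in no colon comparison. In SPF mice 8 of 33 members tested were called, 5 higher and 3 lower, which is close to the 24.1% of all genes called there (12.2% higher and 11.9% lower). The count was 5 without the second SPF library with DSS and 6 without the third, which stood apart in goblet cell markers. In COL mice 3 of 33 were called, 2 higher and 1 lower, against 7.14% of all genes (4.14% higher and 3% lower). The 3 called in COL mice, Slc15a1, Slc7a5 and Slc7a9, were also called in SPF mice with the same sign. The share of all genes called in COL mice that were also called in SPF mice was not counted, so this agreement is not particular to the members. The median over the members was 0.06 in SPF and 0.12 in COL mice, beside -0.03 and 0.01 over all genes. The test of whether the DSS effect differed between mice called 0 of 33 members and 0% of all genes with edgeR. No member was at an unadjusted p under 0.05, beside 1122 of 12855 genes, and none was called with DESeq2.

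**Figure D4:**
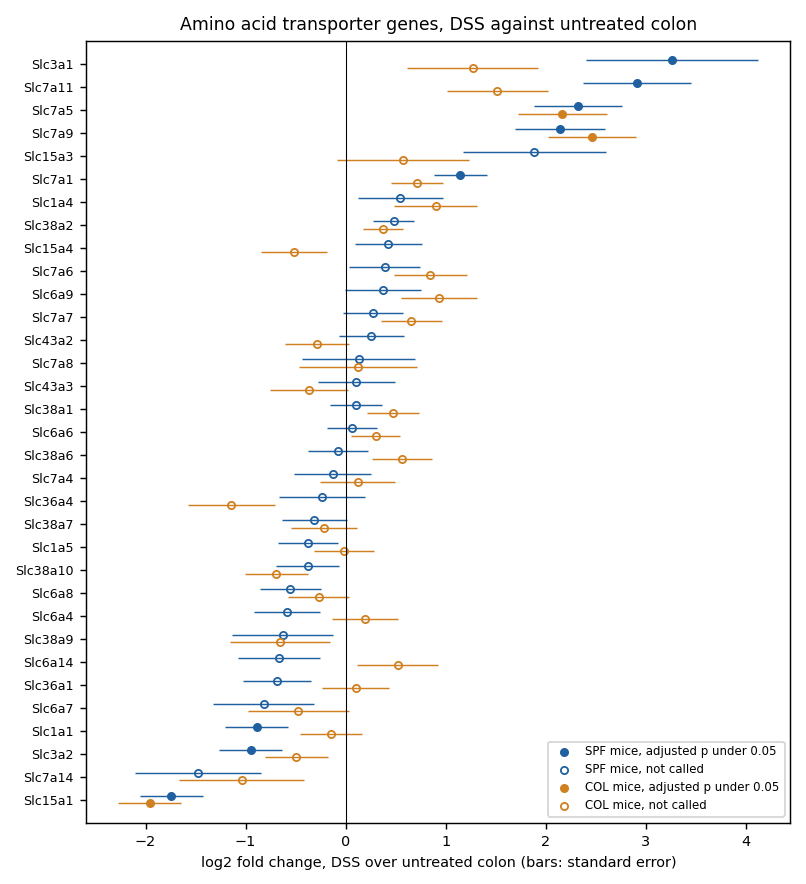
Log2 fold change of DSS over untreated colon (x axis) for the 33 members tested, with bars of 1 standard error, in SPF mice (blue) and COL mice (orange). Filled points passed an adjusted p under 0.05: 8 in SPF and 3 in COL mice. Slc15a1 lies at the left end, and Slc3a1, Slc7a11, Slc7a5 and Slc7a9 lie at the right in SPF mice.

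Slc15a1 was at 166, 191 and 245 CPM in untreated and 88.1, 54.8 and 27.2 in DSS-treated SPF colon, and at 236, 232 and 201 against 60.4, 54 and 49.5 in COL colon. The groups did not overlap in either. It fell by -1.74 ± 0.31 (adjusted p = 0.0013) and -1.96 ± 0.32 (adjusted p = 0.0014), with a difference between mice of -0.22 ± 0.43 (adjusted p = 0.92). The gene lies at chr14:121459621-121505252 on the minus strand (GENCODE vM21, mm10). Colonocyte markers fell too: 6 of 10 were called lower and 1 higher in SPF mice, 4 lower and 1 higher in COL mice, and their sum, with none at 0, went from 7377 to 11280 CPM down to 2829 to 6335 in SPF and from 8786 to 9517 down to 4182 to 6827 in COL mice. The summed level of 8 general epithelial markers overlapped between treatments (7422 to 11010 against 6191 to 10430 in SPF mice), and none of the 8 was called. Their part in the fall of Slc15a1 was not tested.

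Slc7a9 and its partner Slc3a1, which were far below their ileal levels, were higher after DSS. Slc7a9 was at 3.39, 4.46 and 7.78 CPM in untreated and 12.2, 38.7 and 15.8 in DSS-treated SPF colon, and at 7.48, 5.14 and 6.75 against 34.3, 21.3 and 44.9 in COL colon. It rose by 2.14 ± 0.45 (adjusted p = 0.0035) and 2.46 ± 0.44 (adjusted p = 0.003) without overlap, and by 1.47 (adjusted p = 0.025) without the second SPF library with DSS. Slc3a1 was at 0.783, 1.12 and 0 CPM in untreated and 1.39, 11.4 and 4.49 in DSS-treated SPF colon (3.26 ± 0.86, adjusted p = 0.014). Without the second SPF library with DSS the value was 2.26 (adjusted p = 0.083), and without the second or the third untreated library 4.02 and 2.61. In COL mice Slc3a1 was at 5.15, 4.22 and 3.86 against 8.39, 17.9 and 4.54 CPM, overlapping and not called (1.27 ± 0.65, adjusted p = 0.26). The highest of these was the library with pancreas markers, whose part was not tested. Leaving that library out gave the same 3 called members in COL mice. The summed level of 6 ileal enterocyte markers was higher after DSS as well. It went from 46.7 to 93.46 CPM up to 151.1 to 368.8 in SPF mice, and from 57.25 to 99.08 up to 110.9 to 264.7 in COL mice. Of the 4 markers tested, 1 was called higher in each. Their part in the values of Slc7a9 and Slc3a1 was not tested.

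Slc7a5 was at 7.31, 5.36 and 7.2 CPM in untreated and 9.05, 43.2 and 43.4 in DSS-treated SPF colon (2.32 ± 0.44, adjusted p = 0.0019), and at 4.49, 4.95 and 4.05 against 24.1, 16.9 and 16.9 in COL colon (2.17 ± 0.45, adjusted p = 0.0081). The first SPF library with DSS was close to the untreated libraries and the others were far above them. Its heavy chain gene Slc3a2 was called in the other direction in SPF mice, at 235, 177 and 83.1 CPM untreated and 70.1, 80.6 and 94.7 after DSS, with overlap (-0.95 ± 0.32, adjusted p = 0.039). That Slc3a2 call ended without any SPF library with DSS or without the first or second untreated library (adjusted p 0.065 to 0.21), and in COL mice the value was -0.49 (adjusted p = 0.38). Slc1a1 was lower in SPF mice, at 58.7, 34.1 and 33.1 CPM untreated and 24.4, 19.7 and 20.8 after DSS (-0.89 ± 0.32, adjusted p = 0.049), a call that also ended without any SPF library with DSS or the first untreated library (adjusted p 0.051 to 0.24). Slc7a1 rose in SPF mice from 27.1, 33.7 and 45.3 to 53.1, 67.3 and 105 CPM (1.15 ± 0.27, adjusted p = 0.006). In COL mice Slc7a1 was at 45.5, 37.2 and 39.1 against 58, 61 and 70.1 CPM, without overlap but not called (0.71 ± 0.26, adjusted p = 0.11).

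**Figure D5:**
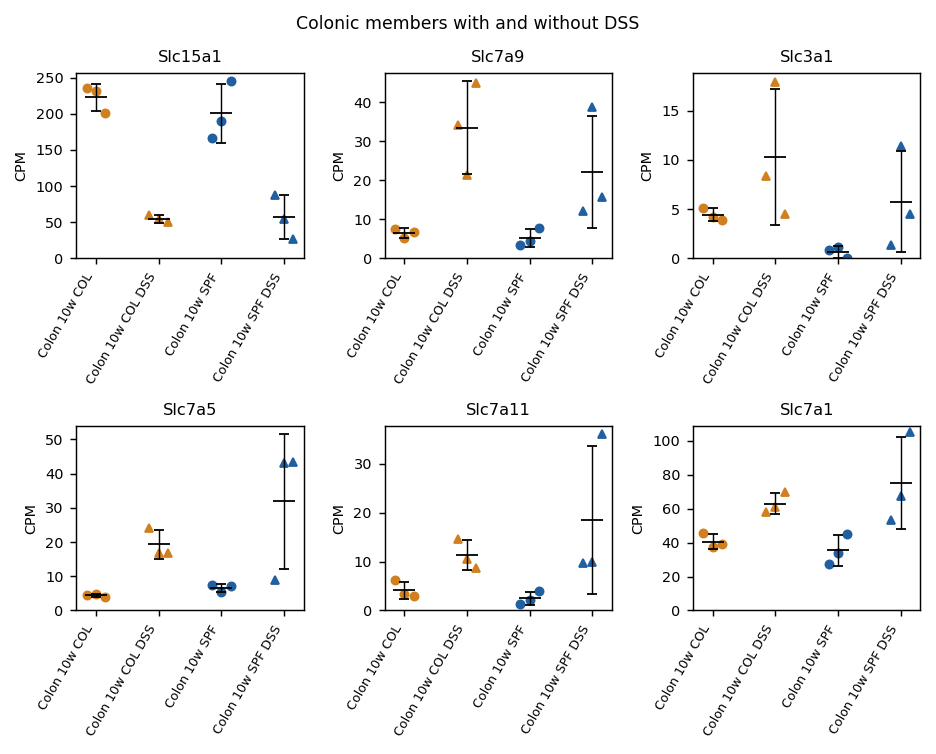
CPM (y axes, from 0) of 6 members in each colon library, untreated (circles) or with DSS (triangles), in COL mice (orange) and SPF mice (blue). Horizontal lines are means and bars are SD (n = 3). Slc15a1 lies lower with DSS in both mice, and Slc7a9 and Slc7a5 lie higher in both.

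Slc7a11, the light chain xCT that imports cystine for glutathione in exchange for glutamate, was at 1.31, 2.23 and 3.89 CPM in untreated and 9.75, 9.86 and 36.1 in DSS-treated SPF colon. It rose by 2.91 ± 0.54 (adjusted p = 0.0017), and by 2.03 (adjusted p = 0.0092) without the third SPF library with DSS. In COL mice Slc7a11 was at 6.15, 3.3 and 2.89 against 14.7, 10.6 and 8.66 CPM without overlap, and missed the threshold (1.52 ± 0.51, adjusted p = 0.079, and 0.045 with DESeq2). The difference between mice was -1.39 ± 0.73 (adjusted p = 0.62). In the ileum edgeR did not call Slc7a11 against GF mice at 10 weeks in SPF (2.98 ± 0.98, adjusted p = 0.1) or COL mice (3.08 ± 0.98, adjusted p = 0.071). DESeq2 called both (adjusted p = 0.034 and 0.016). The single high ileum libraries named above enter here too. Leaving out 1 library at a time in edgeR gave 0.945 to 3.91 in SPF mice (adjusted p 0.025 to 0.63). In COL mice it gave 2.12 to 4.025 (adjusted p 0.059 to 0.26). Genes that make and recycle glutathione or use cystine rose in SPF colon with DSS in 5 of 10 tested and fell in none, among them Gsr (2.05 ± 0.38), Chac2 (1.71 ± 0.40) and Srxn1 (1.23 ± 0.25), and in COL colon 1 of 10 rose, Gsr (1.29 ± 0.37). Of 21 genes of the amino acid starvation response tested, 9 rose and 1 fell in SPF colon, with a median of 0.87. Those that rose were led by Mthfd2 (2.44 ± 0.34), Phgdh (2.72 ± 0.51), Gars (1.27 ± 0.26) and Asns (1.68 ± 0.34), which make serine-derived carbon units, serine, glycyl-tRNA and asparagine, and Ddit3 fell (-1.22 ± 0.36). In COL colon Phgdh (2.16 ± 0.48) and Mthfd2 (1.08 ± 0.32) rose and Ddit3 (-1.90 ± 0.36) fell. Proliferation markers rose beside them, 9 of 10 in SPF and 8 of 10 in COL mice, with sums of 368 to 483 CPM untreated and 1034 to 2048 after DSS in SPF mice and 289 to 547 against 1158 to 1232 in COL mice. Smooth muscle markers fell in 7 of 9 and 2 of 9, and 3 of 3 and 1 of 3 neutrophil markers tested rose. Their part in the rise of Slc7a11 was not tested. The promoter of Slc7a11 is shown because it holds the amino acid response core, in both orientations. Capitals mark the core TGATGCAA from -66 to -59 before the RefSeq start, its reverse complement TTGCATCA from -47 to -40, and a match to the STAT site, TTCTGGGAA, from -183 to -175. Of the members with a promoter in the table, Slc7a7 also held the core.
Slc7a11, chr3:50443614-50443863, minus strand: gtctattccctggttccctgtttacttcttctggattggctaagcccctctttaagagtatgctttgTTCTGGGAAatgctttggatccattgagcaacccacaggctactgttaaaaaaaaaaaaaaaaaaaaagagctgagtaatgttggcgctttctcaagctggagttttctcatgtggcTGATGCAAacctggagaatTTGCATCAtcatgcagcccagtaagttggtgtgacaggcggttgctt

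Slc6a14 was not called with DSS, at 275, 324 and 139 CPM in SPF mice (-0.67 ± 0.41, adjusted p = 0.25) and 263, 324 and 704 in COL mice (0.52 ± 0.41, adjusted p = 0.49), and its treated and untreated libraries overlapped in both. COL against SPF called 0 of 33 members in untreated colon, with 3 at an unadjusted p under 0.05, and 0 of 33 in colon with DSS, with 1, and DESeq2 called none in either. Of all genes 0% and 0.00778% were called there, and 988 and 1030 of 12855 were at an unadjusted p under 0.05.

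Over all comparisons, 41 of the 47 members were tested in at least 1 fit. Slc38a4, Slc38a8, Slc43a1, Slc6a11, Slc6a2 and Slc7a2 were too low for the filter in each. The tested members called in no comparison by edgeR were Slc1a3, Slc1a4, Slc36a4, Slc38a1, Slc38a2, Slc38a7, Slc38a10, Slc43a3, Slc6a8, Slc6a9, Slc6a17 and Slc7a6. They include Slc38a1 and Slc38a2, the system A carriers of glutamine and alanine. Slc1a3 was too low for the filter in the colon libraries, and Slc6a17 was tested only across tissues. Slc38a2 came closest in SPF against GF ileum at 6 weeks, at 258, 260 and 268 CPM in GF and 123, 165 and 190 in SPF mice (-0.52, adjusted p = 0.051, and 0.018 with DESeq2), without overlap. In COL mice of 6 weeks Slc38a2 was at 163, 170 and 143 CPM (-0.49, adjusted p = 0.097, and 0.049 with DESeq2), and at 10 weeks at 274, 273 and 226 in COL and 259, 197 and 214 in GF mice, which overlapped. Members called across tissues but in no comparison within a tissue included Slc6a19, Slc6a18, Slc1a5, Slc6a4 and Slc6a6. Of these, Slc6a19 and Slc6a18 were too low for the filter in the colon libraries, so no comparison within the colon could call them. Slc7a6os lies opposite Slc7a6 and reached levels like it, from 2.61 to 14.4 CPM against 2.03 to 12.5, so reads of these genes cannot be told apart if strand was not used.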

How the data were processed

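Total RNA of whole tissue was made into 3′ tag libraries, per the labels' protocols. The deposited values are counts of reads per gene symbol. Per the submitters' processing notes, Trimmomatic 0.36, FastQC 0.11.5, STAR 2.5.3a, HTSeq and genome build mm10 were used, and the version and strand setting of HTSeq and its annotation are not given in the sources used here. Reads that aligned to several places were not counted, so near-identical genes are uncertain, and 5 summary lines that name no gene were left out. No 2 replicates agreed within sampling noise (the lowest chi-square over its degrees of freedom was 5.29).

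CPM is counts over the total of gene rows. Counts were fitted with edgeR 4.0.16 in R 4.3.3 (TMM, filterByExpr by group, robust quasi-likelihood test) across all genes: 12855 in 12 colon libraries, 13233 in 18 ileum libraries and 13807 in all 30 for tissues. P-values were adjusted over all genes tested by Benjamini-Hochberg and called under 0.05, and a standard error is the log2 fold change over the square root of F. There were 19 comparisons. The scripts were tested on simulated data. Alternatives were DESeq2 1.42.0, its size factors within edgeR, no filter, a replicate block and leaving out each library.

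Replicate numbers come from the titles. In the ileum at 10 weeks, SPF and GF libraries of the same number deviated together from their group means, with correlations of 0.25, 0.19 and 0.16 (libraries of different numbers averaged -0.099), and the blocked value is given there. No other comparison had all 3 above 0.1.

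The members, the lists of pathway and marker genes and the tests were chosen with earlier results of these data known. Named are Slc6a14 throughout, the called members, a set list of 20 members, and list genes with the smallest p. Not every gene this rule names is reported. Motifs were searched on both strands in 250 bases before RefSeq starts, found for 33 of the 47 members, and positions are from GENCODE vM21.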

Additional observations from a re-analysis of the deposited data

How the results depend on the processing

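Scaling with the size factors of DESeq2 left every count of called members within 1.5 times its value, and so did fitting without the filter. Without the filter, adjusted p-values passed 0.05 for Slc6a14 (COL against GF, 6 weeks, 0.058), Slc43a2 (COL against GF, 10 weeks, 0.06), Slc7a8 (COL against GF, 10 weeks, 0.08), and in COL mice across tissues Slc7a11 (0.063) and Slc36a2 (0.071). DESeq2 called 11 members in place of 4 for COL against GF at 6 weeks, 5 in place of 2 for SPF against GF at 10 weeks, 3 in place of 1 for COL and 2 in place of 0 for SPF between ages, and 1 in place of 0 for COL against SPF at 10 weeks.

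With the replicate number as a block, 1 member was called for SPF against GF at 10 weeks, where same-numbered libraries deviated together. For COL against GF at 6 weeks, where they did not, 1 was called in place of 4. The labels do not say that the numbers pair libraries. The other counts stayed within 1.5 times, 6 in place of 8 for DSS in SPF colon and 17 in place of 22 across tissues in COL mice.

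Leaving out single libraries gave 5 to 8 called members for DSS in SPF colon, 4 to 8 for SPF and 1 to 8 for COL against GF at 6 weeks, 0 to 5 for SPF and 3 to 8 for COL against GF at 10 weeks, 0 to 1 for COL against SPF at 10 weeks, and 0 to 2 between ages in both SPF and COL mice. Signs turned only for values not called: Slc15a1 across tissues in COL mice (-0.043 to 0.10) and in the DSS difference between mice (-0.55 to 0.27), Slc1a1 with DSS in COL mice (-0.33 to 0.15), Slc6a14 between ages in GF mice (-3.09 to 1.93), in the COL effect between ages (-0.92 to 4.11) and with DSS in COL mice (-0.11 to 0.80), and Slc7a15 between ages in GF mice (-0.054 to 0.22). The same held for Slc6a7 in SPF against GF at 10 weeks (-0.65 to 0.023), Slc7a5 across tissues in SPF mice (-0.68 to 0.59), and the DSS difference between mice of Slc7a5 (-0.59 to 0.14) and Slc7a9 (-0.086 to 0.996). Counts fell without some libraries and rose without others. For COL against GF at 6 weeks, 4 became 1 without the second GF library and 8 without the first COL library. The cause of these shifts was not tested. With 3 libraries a group and members at a few CPM, depth limits what can be called, and a member not called may still differ.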
